A study of Homo sapiens with 4 samples.

Results

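Genes of the unfolded protein response and of protein folding in the endoplasmic reticulum (ER) were examined in cells of the human colorectal carcinoma line HCT116 that carried FOXD2 or an empty vector. The 40 genes were listed by name for their function, as chaperones, folding enzymes, degradation factors and stress sensors, and all 40 were found among the 60683 gene identifiers of the deposited tables. Of these, 38 had enough counts to be tested. DERL3 and ERN2 did not pass the filter on low counts.

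The empty vector group held 2 RNA sequencing libraries from cells transduced with a pSin lentivirus without insert, and the FOXD2 group held 2 libraries from cells transduced with the same vector carrying FOXD2, a transcription factor of the forkhead family, as its full-length coding sequence. Both groups were stable lines kept in medium with 5 μg/mL puromycin, so drug selection was shared by all libraries. The labels do not say whether the replicates came from separate cultures or transductions, and p-values therefore measure the spread between these libraries, which may be technical. In CPM, counts scaled to the size of each library, FOXD2 itself was at 3.50 and 2.78 with the empty vector and at 526 and 479 with the transgene. The transgene was thus high in both libraries labelled as carrying it.

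The ER folds secreted and membrane proteins with the help of chaperones, lectins that hold glycoproteins, and enzymes that form disulfide bonds. Proteins that fail to fold are passed back to the cytosol for destruction, a route called ER-associated degradation. When unfolded proteins accumulate, 3 sensors in the ER membrane respond. IRE1 (gene ERN1) splices the mRNA of the transcription factor XBP1, ATF6 is cut to release a transcription factor, and PERK (gene EIF2AK3) phosphorylates the translation factor eIF2, which slows protein synthesis while it favours translation of the factor ATF4. Splicing, cleavage and phosphorylation were not measured here, only the amount of each gene's polyA RNA. In bulk RNA, fewer cells that express a gene and less RNA per cell cannot be told apart.

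Many genes of this group are known to be controlled through the ER stress response element (ERSE), a CCAAT box and the sequence CCACG held a fixed distance apart, to which the factor NF-Y and cleaved ATF6 or spliced XBP1 bind. The consensus, CCAAT followed by any 9 bases and then CCACG, was searched on both strands of RefSeq promoters (GRCh38.p14, 250 bases before to 50 bases after the start of a gene), which were found for 36 of the 40 genes. It was present in 7 of the 36 (19.4%), against 0.0806% of 27305 promoters of the same length in the whole table. The compact form ERSE-II, ATTGG followed by any 1 base and then CCACG, was present in 3 of the 36 (8.33%). Its share over all promoters was 0.0549%. Among the 10767 promoters of tested genes the shares were 0.13% for ERSE and 0.102% for ERSE-II. Both elements are known from genes such as these, so the higher shares in the list are a description and not a test. The matches are printed because their genes include both genes that rose and genes that fell, each on the strand of its gene with the match in capitals. A match that reads CGTGG first lies on the opposite strand. The start used is that of the first RefSeq entry of each gene. CANX has 4 entries and XBP1 has 2. The matches of CANX, HSP90B1 and CRELD2 lie inside the spans of their genes. The CANX span is given below, and those of HSP90B1 and CRELD2 are chr12:103930107-103953645 and chr22:49918167-49927540. The window of the second HSP90B1 match holds 11 bases annotated as untranslated region.
HSPA5, ERSE, chr9:125241371-125241429, minus strand: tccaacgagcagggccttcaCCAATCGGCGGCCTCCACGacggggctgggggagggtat
HSP90B1, first of its ERSE matches, chr12:103930196-103930254, plus strand: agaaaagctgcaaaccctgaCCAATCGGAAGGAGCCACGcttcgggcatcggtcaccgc
HSP90B1, second ERSE match, chr12:103930316-103930344, plus strand: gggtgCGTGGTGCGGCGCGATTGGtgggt
CANX, ERSE, chr5:179698758-179698816, plus strand: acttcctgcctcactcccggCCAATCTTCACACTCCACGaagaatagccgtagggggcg
CALR, ERSE, chr19:12938364-12938422, plus strand: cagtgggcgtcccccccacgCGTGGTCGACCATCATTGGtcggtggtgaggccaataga
XBP1, ERSE, chr22:28800598-28800626, minus strand: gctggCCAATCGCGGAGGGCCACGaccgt
CRELD2, ERSE, chr22:49918534-49918592, plus strand: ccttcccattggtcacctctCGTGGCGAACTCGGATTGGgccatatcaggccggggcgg
ERO1B, ERSE, chr1:236282163-236282208, minus strand: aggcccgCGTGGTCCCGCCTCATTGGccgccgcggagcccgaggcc
HERPUD1, ERSE-II, chr16:56932020-56932040, plus strand: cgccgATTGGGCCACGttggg
SDF2L1, ERSE-II, chr22:21642094-21642144, plus strand: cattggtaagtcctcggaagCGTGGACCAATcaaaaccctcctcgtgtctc
HYOU1, ERSE-II farther from the start, chr11:119057360-119057410, minus strand: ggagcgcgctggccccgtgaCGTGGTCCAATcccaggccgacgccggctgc
HYOU1, ERSE-II nearer the start, chr11:119057254-119057304, minus strand: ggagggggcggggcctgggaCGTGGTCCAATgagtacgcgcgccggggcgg

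Of these 10 genes, CALR, XBP1 and HERPUD1 were higher in FOXD2 cells, HSPA5, HSP90B1 and CANX were lower, and CRELD2, ERO1B, SDF2L1 and HYOU1 did not pass the test described below. Among the 26 genes with a promoter but neither element, 8 were higher and 9 lower. Over all genes tested, 27.2% were higher and 26.4% lower, and the split by element was not tested. A match is a description of the letters and does not show that a factor binds there. The CCAAT box by itself was present in 29 of the 36 promoters (80.6%) and in 35.7% of all promoters, and every ERSE or ERSE-II match contains one. The upstream region of HSPA5, the gene of the chaperone BiP, held 4 CCAAT boxes over both strands, in capitals here, and the box nearest the start is the one in its ERSE.
HSPA5, chr9:125241344-125241593, minus strand: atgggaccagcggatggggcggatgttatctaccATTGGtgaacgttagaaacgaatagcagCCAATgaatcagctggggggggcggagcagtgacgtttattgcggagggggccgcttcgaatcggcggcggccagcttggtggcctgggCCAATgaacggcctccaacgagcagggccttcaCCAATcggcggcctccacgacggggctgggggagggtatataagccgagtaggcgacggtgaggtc

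Other elements were rare in these windows. The core of the unfolded protein response element, TGACGTGG, was found in 1 of the 36 promoters, that of HYOU1, where it overlaps the ERSE-II farther from the start, and in 0.795% of all promoters. ATTGCATCA, a form of the element bound by ATF4 with C/EBP factors, was found in 0 of the 36 and in 0.264% of all promoters. The forkhead core GTAAACA was found in 0 of the 36, in 3.41% of all promoters and in 2.21% of those of tested genes. The last counts say only that these letters are not in these windows.

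Levels per transcript length, given as the authors' TPM, which scales for transcript length and library size, spanned a wide range. The disulfide isomerase gene P4HB was the highest, with a mean of 749 TPM in empty vector cells and 812 TPM in FOXD2 cells. It was followed in empty vector cells by the HSP90-class chaperone HSP90B1 (669 TPM) and the lectin chaperone CALR (592 TPM), which changed places in FOXD2 cells at 659 and 704 TPM. Next came PDIA3 (347 TPM), HSPA5 (319 TPM) and CANX (310 TPM), and 11 genes in all were above 100 TPM in empty vector cells. The sensors were far lower, with means of 14.4 TPM for ATF6, 7.32 TPM for EIF2AK3 and 3.93 TPM for ERN1. DERL3, a degradation factor known from secretory cells, had 0 counts in each of the 4 libraries, where 3 counts correspond to 0.193 to 0.215 CPM. ERN2, the IRE1 paralogue of mucosal epithelium, had counts of 1 and 3 with the empty vector and of 6 and 4 with FOXD2, which is too few to compare. Summed over all 40 genes, the libraries held 4724 and 4643 TPM with the empty vector and 4633 and 4608 TPM with FOXD2. These totals in TPM lay close together, with FOXD2 lower in both libraries. In CPM the same sums lay farther apart, at 8445 and 8511 with the empty vector and 8013 and 7850 with FOXD2.

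**Figure D1:**
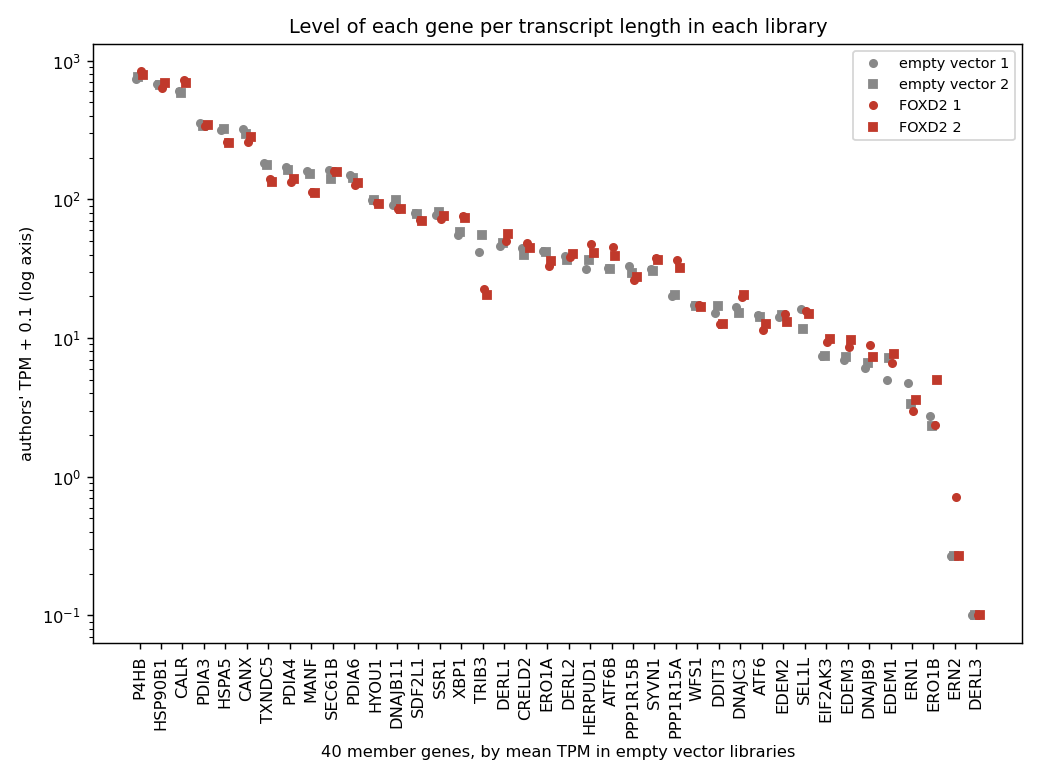
The authors' TPM plus 0.1 of each of the 40 genes on a log axis, with circles for replicate 1 and squares for replicate 2, grey for empty vector and red for FOXD2. The genes are ordered by their mean in empty vector cells, from P4HB at 749 TPM to DERL3 at 0, and TRIB3 shows the widest gap between the colours among genes above 10 TPM.

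FOXD2 cells were then compared with empty vector cells, gene by gene. Of the 38 tested genes, 12 were higher and 12 were lower in FOXD2 cells (quasi-likelihood test of edgeR, Benjamini-Hochberg adjusted p under 0.05 over all 14470 genes tested, as for each adjusted p below). That is 63.2% of the genes, beside a background of 53.5% of all genes tested, of which 27.2% were higher and 26.4% lower. The median log2 fold change of the 38 genes was -0.04, and that of all genes tested was 0.01. Changes were small: 22 of the 24 called genes differed by less than 1.5-fold, and 1 gene in each direction, PPP1R15A and TRIB3, exceeded it, beside 14.9% of all genes at least 1.5-fold higher and 7.81% at least 1.5-fold lower. The values of the 2 libraries of a group lay on 1 side of those of the other group for 32 of the 38 genes, beside 76.1% of all genes tested. FOXD2 was the higher group for 14 of them (background 38.9%) and the lower for 18 (background 37.2%). Counts are given by role and by list in what follows, to be read beside the background of 27.2% higher and 26.4% lower. Differences between roles were not tested.

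**Figure D2:**
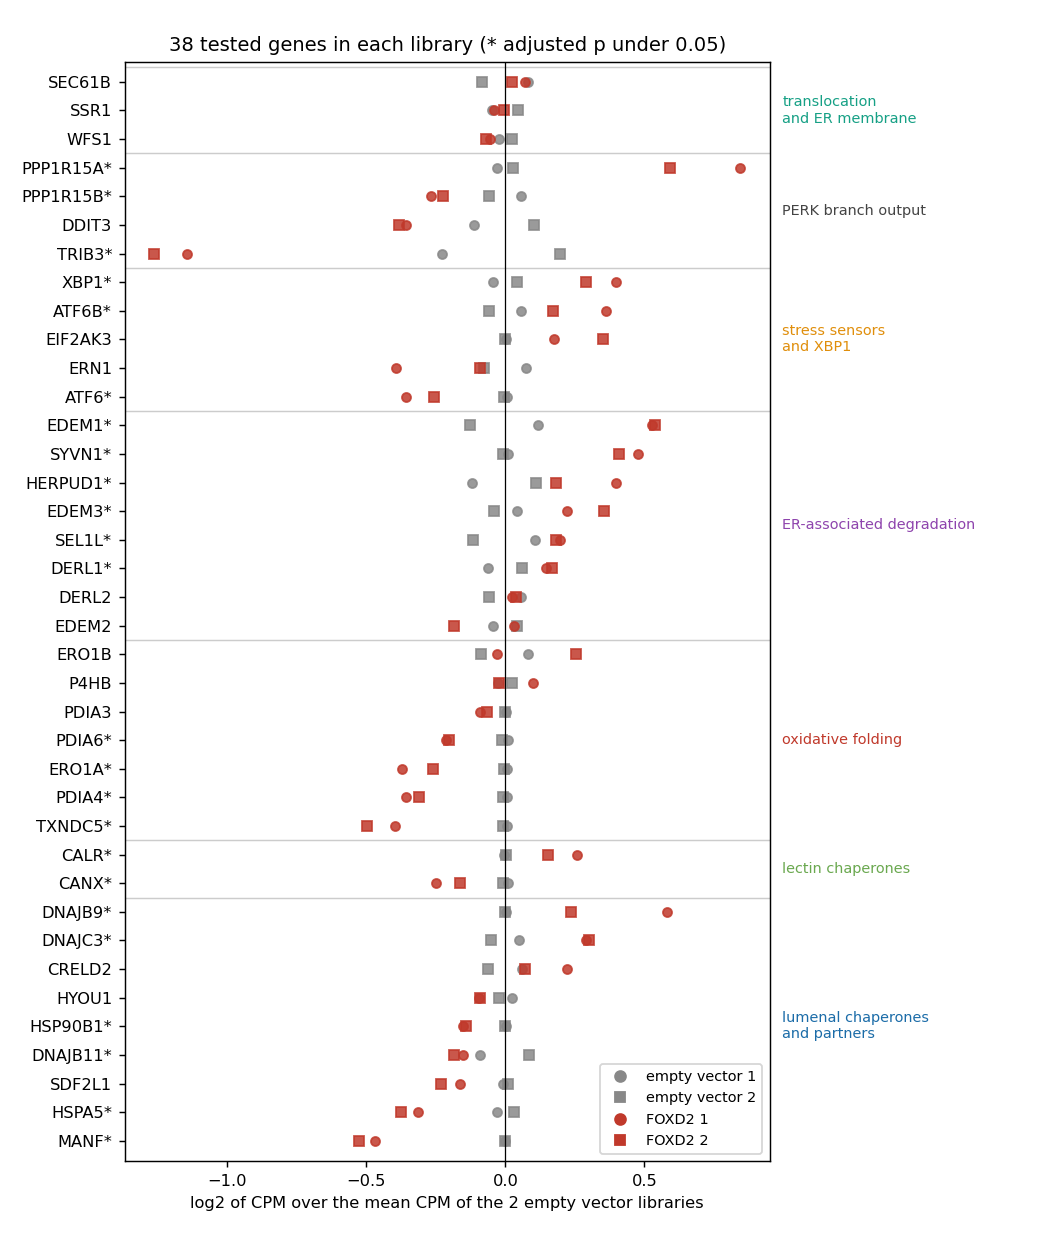
CPM of the 38 tested genes in each library as log2 of its ratio to the mean of the empty vector libraries, grouped by role. Circles are replicate 1 and squares replicate 2, grey is empty vector, red is FOXD2, and an asterisk marks an adjusted p under 0.05. The red points of most degradation genes lie to the right of the grey ones, and those of most oxidative folding genes to the left.

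The chaperones of the ER lumen and their partners went both ways, with 4 of 9 lower and 2 higher, beside 26.4% and 27.2% of all genes tested. HSPA5 (chromosome 9, 125234853 to 125241330, minus strand, GRCh38) encodes BiP, the HSP70 of the ER that also holds the stress sensors inactive. It was at 921 and 961 CPM in the empty vector libraries and at 757 and 726 CPM in the FOXD2 libraries. Both FOXD2 libraries lay below both empty vector libraries, and the log2 fold change was -0.34 (SE 0.05, edgeR adjusted p = 1.8e-07). MANF, a secreted partner of BiP, showed the largest fall of the group, from 86.0 and 85.9 CPM to 62.1 and 59.7 CPM, or -0.50 on the log2 scale (SE 0.07, edgeR adjusted p = 1.1e-07). It lies on chromosome 3 from 51385047 to 51389397 on the plus strand. HSP90B1, the HSP90 of the ER, was at 1194 and 1190 CPM with the empty vector and at 1072 and 1080 CPM with FOXD2. The groups did not overlap, but the difference was small (log2 fold change -0.15, SE 0.05, edgeR adjusted p = 0.013). DNAJB11, an HSP40 cochaperone of BiP, had -0.17 (adjusted p = 0.037).

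The calls of HSP90B1 and DNAJB11 were the least firm of this group, passing in 7 and 5 of the 14 alternatives run. With all libraries kept, DNAJB11 was lost with upper-quartile factors (edgeR adjusted p = 0.11) and without scaling factors (0.21). It was also lost with DESeq2, with limma and with the replicate number as a block. HSP90B1 did not pass without empty vector replicate 1 (edgeR adjusted p = 0.12) or replicate 2 (0.10), nor without scaling factors (0.13). On TPM it had a limma log2 difference of -0.02 (adjusted p = 0.75), and the RNA length that RSEM assigned to it was 2467 and 2442 bases with the empty vector and 2378 and 2267 bases with FOXD2. DNAJB11 did not pass without empty vector replicate 2 (edgeR adjusted p = 0.53) or FOXD2 replicate 2 (0.082).

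The genes that rose among the chaperones were other HSP40 proteins. DNAJB9, which encodes ERdj4, a BiP partner known as a target of spliced XBP1 and a repressor of IRE1, was at 10.2 CPM in both empty vector libraries and at 15.3 and 12.03 CPM in the FOXD2 libraries (log2 fold change 0.42, SE 0.15, edgeR adjusted p = 0.013). Its FOXD2 libraries differed from each other by more than FOXD2 replicate 2 differed from the empty vector libraries, and the call was lost without FOXD2 replicate 1 (adjusted p = 0.28). It was also lost without empty vector replicate 1 (0.062) or replicate 2 (0.068). DNAJC3, which encodes p58IPK, a BiP partner also described as an inhibitor of PERK, had 0.30 (SE 0.07, edgeR adjusted p = 0.00065). The call of DNAJC3 was lost without empty vector replicate 2 and with limma on log2(TPM + 1). HYOU1, a nucleotide exchange factor of BiP (-0.09), SDF2L1, a BiP complex partner (-0.20), and CRELD2, an ER isomerase-like protein (0.15), did not pass, with edgeR adjusted p of 0.17, 0.063 and 0.15.

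The lectin chaperones calreticulin and calnexin, which bind the same type of glycan on folding glycoproteins, moved in opposite directions. CALR, the soluble protein (chromosome 19, 12938578 to 12944489, plus strand), was at 783 and 786 CPM in the empty vector libraries and at 938 and 873 CPM in the FOXD2 libraries. Both FOXD2 libraries were higher (log2 fold change 0.21, SE 0.05, edgeR adjusted p = 0.00081). CANX, the membrane protein (chromosome 5, 179678628 to 179730925, plus strand), was at 983 and 971 CPM with the empty vector and lower, at 822 and 872 CPM, with FOXD2 (-0.21, SE 0.05, edgeR adjusted p = 0.00075). Their summed CPM, 1766 and 1757 with the empty vector and 1760 and 1744 with FOXD2, differed little between the groups. Their summed TPM was 922 and 881 with the empty vector and higher, at 979 and 969, with FOXD2. The calls of CALR and CANX held under each of the 14 alternatives run.

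Oxidative folding genes were lower or did not pass: 4 of 7 fell and 0 rose, with a median log2 fold change of -0.21. Of all genes tested, 26.4% were lower and 27.2% higher. TXNDC5, a disulfide isomerase of the thioredoxin family, was at 391.7 and 387.8 CPM in the empty vector libraries and at 296 and 276 CPM in the FOXD2 libraries (log2 fold change -0.45, SE 0.06, edgeR adjusted p = 1.7e-09). PDIA4 was at 342 and 338 CPM and then at 265 and 274 CPM (-0.33, SE 0.06, edgeR adjusted p = 1.5e-06). ERO1A, the oxidase that recharges disulfide isomerases, was at 135 and 134 CPM and then at 104 and 113 CPM (-0.31, SE 0.07, edgeR adjusted p = 7.1e-05). In these 3 genes the empty vector libraries nearly coincided and both FOXD2 libraries lay below them, and their calls held under each of the 14 alternatives. PDIA6 had -0.21 (SE 0.06, edgeR adjusted p = 0.0024), and its adjusted p was 0.0502 without empty vector replicate 1.

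The remaining oxidative folding genes did not pass. P4HB, also a subunit of collagen prolyl hydroxylase, had a log2 fold change of 0.04 (edgeR adjusted p = 0.54), with overlapping groups. PDIA3, which works with the lectin chaperones on glycoproteins, had -0.08 (adjusted p = 0.22). ERO1B, the second oxidase, was low and variable, at 9.15 and 8.15 CPM with the empty vector and 8.48 and 10.3 CPM with FOXD2 (0.12, adjusted p = 0.56).

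ER-associated degradation genes were higher or did not pass: 6 of 8 rose and 0 fell, with a median log2 fold change of 0.24. The background over all genes tested was 27.2% higher and 26.4% lower. EDEM1, a lectin that extracts misfolded glycoproteins from the folding cycle (chromosome 3, 5187646 to 5219957, plus strand), was at 22.7 and 19.2 CPM in the empty vector libraries and at 30.2 and 30.5 CPM in the FOXD2 libraries (log2 fold change 0.53, SE 0.11, edgeR adjusted p = 2.6e-05). On log2(TPM + 1) its difference was 0.22 and its call was lost (limma adjusted p = 0.40). The length RSEM assigned to EDEM1 was 6113 and 3598 bases with the empty vector and 6113 and 5485 bases with FOXD2. The part of this length in the TPM result was not tested. SYVN1, which encodes HRD1, the ubiquitin ligase at the centre of the main degradation complex (chromosome 11, 65121780 to 65134533, minus strand), was at 56.3 and 55.5 CPM and then at 77.7 and 74.2 CPM. Both FOXD2 libraries were well above the empty vector libraries (0.44, SE 0.08, edgeR adjusted p = 2.1e-06), and SYVN1 was the gene of this group whose call held under all 14 alternatives. Its log2 difference was smaller on log2(TPM + 1), at 0.25 (limma adjusted p = 0.044), from 31.4 and 30.6 TPM with the empty vector and 37.5 and 36.5 TPM with FOXD2.

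HERPUD1, a membrane adaptor of the HRD1 complex, was 0.29 higher on the log2 scale (SE 0.09, edgeR adjusted p = 0.0064), and EDEM3, a mannosidase, also 0.29 (SE 0.09, edgeR adjusted p = 0.0075). SEL1L, the partner that holds HRD1 in place, had 0.19 (adjusted p = 0.029), and the channel component DERL1 had 0.16 (adjusted p = 0.0495). These smaller calls were less firm. HERPUD1 was lost without empty vector replicate 1 (edgeR adjusted p = 0.23) or FOXD2 replicate 1 (0.15), EDEM3 without empty vector replicate 2 (0.12) or FOXD2 replicate 2 (0.076), SEL1L without empty vector replicate 2 (0.58) or FOXD2 replicate 1 (0.067), and DERL1 on leaving out any 1 of the 4 libraries (0.068 to 0.48). With all libraries kept, DERL1 was also lost in 7 alternatives, among them RLE size factors (edgeR adjusted p = 0.063) and no filter (0.11), and SEL1L in 5, among them no filter (0.051) and the replicate block (0.063). EDEM3 had a log2 fold change of at least 0.22 in each alternative, those that lost its call included. DERL2 (0.03) and EDEM2 (-0.07) did not pass. Leaving out empty vector replicate 2 or FOXD2 replicate 1 reduced the count of risen degradation genes from 6 to 3, and DESeq2 called 2 of the 8 higher, with 0 lower in each of these.

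**Figure D3:**
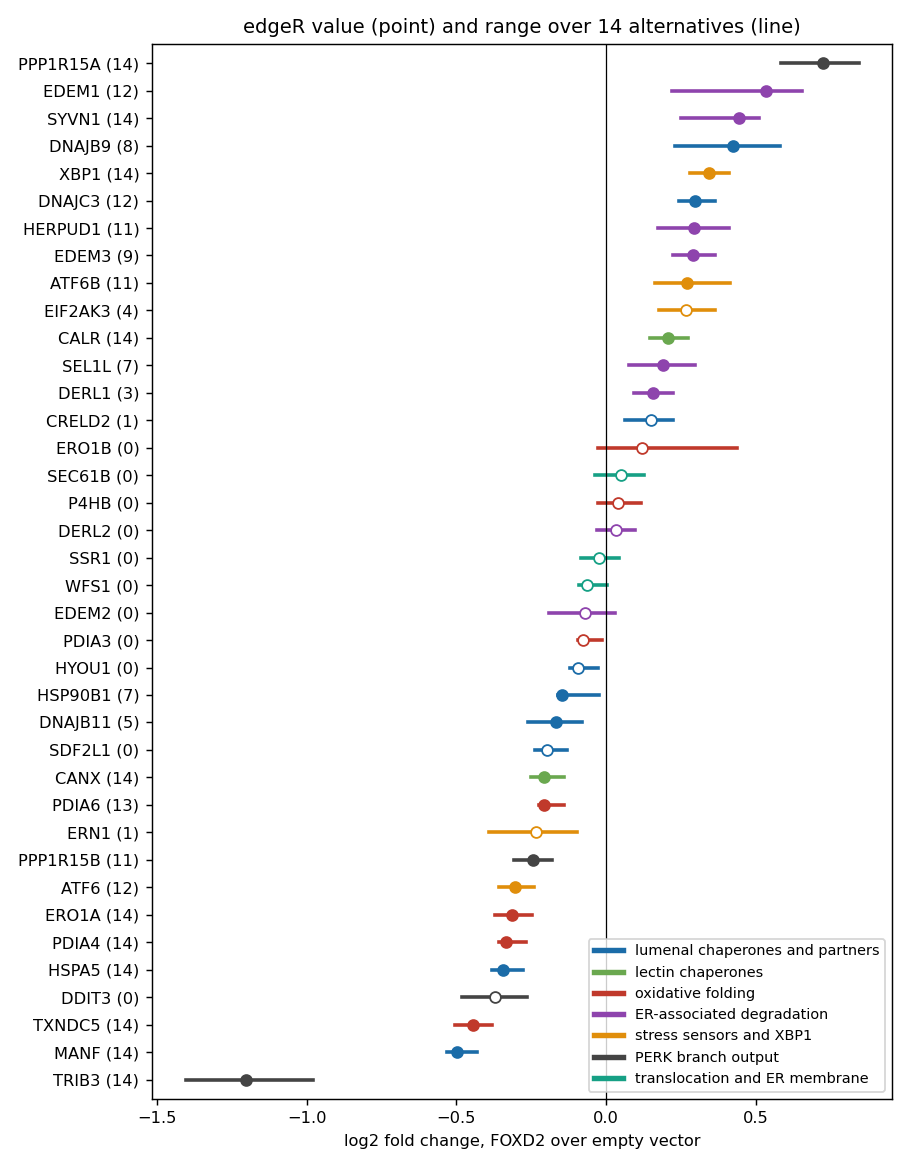
Log2 fold change of each of the 38 tested genes (point, filled where edgeR adjusted p was under 0.05) with the lowest and highest value over 14 alternative analyses (line), coloured by role. The number beside each name is how many of the 14 called the gene, and 11 of the 24 called genes were called by all 14.

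Among the sensors, ATF6 and its paralogue differed in direction. ATF6 (chromosome 1, 161766294 to 161964070, plus strand) was at 83.5 and 82.8 CPM in the empty vector libraries and at 64.9 and 69.6 CPM in the FOXD2 libraries (log2 fold change -0.31, SE 0.07, edgeR adjusted p = 0.00044). On log2(TPM + 1) the difference of ATF6 was -0.25, of similar size, and did not pass (limma adjusted p = 0.14). ATF6B had 0.27 (SE 0.08, edgeR adjusted p = 0.0041), and lost its call without empty vector replicate 2 (0.12) or FOXD2 replicate 1 (0.13). ERN1 was at 20.3 and 18.3 CPM with the empty vector and at 14.7 and 18.1 CPM with FOXD2. The FOXD2 libraries differed from each other, and ERN1 did not pass (-0.23, SE 0.12, edgeR adjusted p = 0.11), except without FOXD2 replicate 2 (0.015). EIF2AK3 was at 17.2 CPM in both empty vector libraries and at 19.5 and 22.0 CPM in the FOXD2 libraries, and just missed the threshold (0.27, SE 0.12, edgeR adjusted p = 0.053), which it passed with upper-quartile factors (0.026), no scaling (0.019), a filter of 1 CPM (0.049) or without FOXD2 replicate 1 (0.023).

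XBP1, the transcription factor whose mRNA IRE1 splices (chromosome 22, 28794555 to 28800597, minus strand), was at 69.8 and 74.2 CPM with the empty vector and at 94.8 and 87.9 CPM with FOXD2. Both FOXD2 libraries were higher (log2 fold change 0.34, SE 0.07, edgeR adjusted p = 8.1e-05), and the call held under all 14 alternatives. The counts pool the spliced and unspliced mRNA.

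The genes downstream of PERK held the largest changes in both directions. TRIB3, a pseudokinase induced by ATF4 and CHOP (chromosome 20, 362835 to 397559, plus strand), was at 60.2 and 80.7 CPM in the empty vector libraries and at 31.9 and 29.4 CPM in the FOXD2 libraries. The empty vector libraries differed from each other, yet both were above both FOXD2 libraries, and the log2 fold change was -1.20 (SE 0.13, edgeR adjusted p = 1.5e-05), or 2.30-fold lower. PPP1R15A, which encodes GADD34, the stress-induced subunit that directs dephosphorylation of eIF2 (chromosome 19, 48872392 to 48876057, plus strand), was at 33.3 and 34.6 CPM and then at 60.9 and 51.1 CPM. It rose 1.65-fold (log2 fold change 0.72, SE 0.09, edgeR adjusted p = 1.1e-09). PPP1R15B, the constitutive subunit of the same phosphatase, was lower (-0.25, SE 0.07, edgeR adjusted p = 0.0019). Its call was lost without empty vector replicate 1 and with limma on log2(TPM + 1) or log2(TPM + 0.1). DDIT3, which encodes the factor CHOP, was low, at 8.15 and 9.47 CPM and then at 6.87 and 6.76 CPM, and did not pass (-0.37, SE 0.17, edgeR adjusted p = 0.065). On the opposite strand DDIT3 overlaps MARS by 982 bases and MBD6 by 1028 bases. Without strand information, reads from these stretches, though not from the rest of DDIT3, cannot be told apart by strand. Other genes of the list have such overlaps too, among them HSP90B1 with C12orf73 (3444 bases).

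The genes of translocation and of the ER membrane did not pass: the translocon subunit SEC61B had a log2 fold change of 0.05, the translocon-associated SSR1 -0.02 and the calcium-handling membrane protein WFS1 -0.06, with edgeR adjusted p from 0.55 to 0.78.

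**Figure D4:**
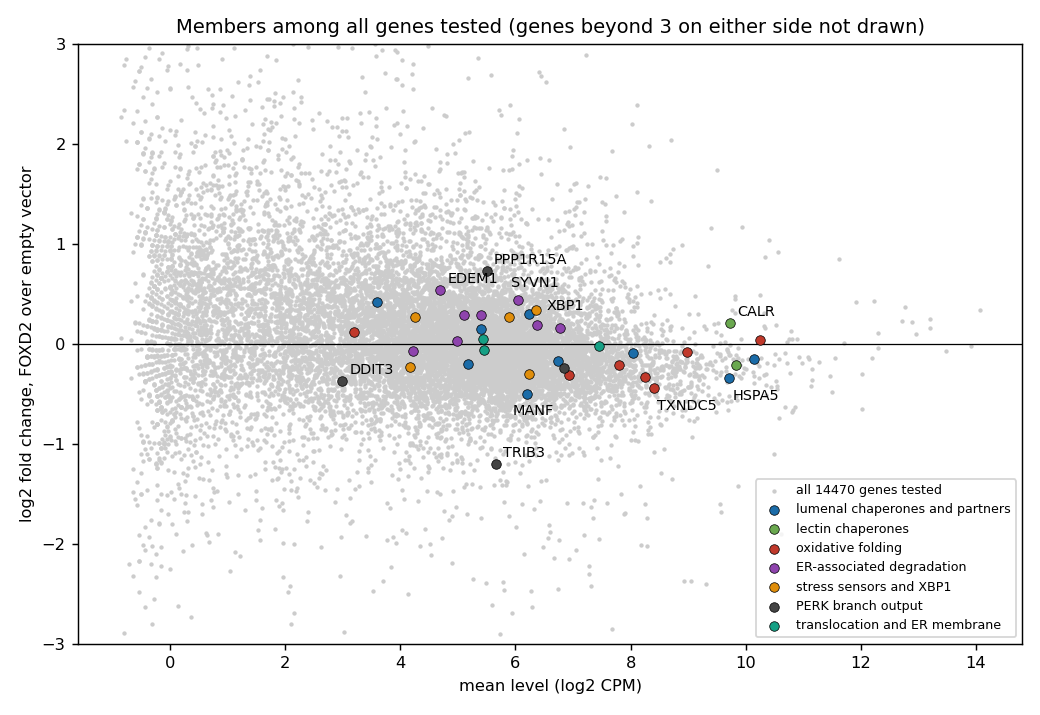
Log2 fold change against mean level in log2 CPM for all 14470 genes tested (grey) and the 38 tested genes of the list (coloured by role). Most coloured points lie close to 0 within the cloud of grey ones, with TRIB3 at -1.20 and PPP1R15A at 0.72 the farthest from 0.

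The length RSEM assigns to a gene, the mean over its transcripts weighted by their abundance, gave a second readout. The groups did not overlap in this length for 12 of the 38 genes (31.6%), beside 34.4% of all genes tested, so the share was near the background. The largest such shift was in SYVN1, from 2497 and 2467 bases with the empty vector to 2855 and 2865 bases with FOXD2, or 15.2% longer. SYVN1 overlaps FAU on the same strand by 694 bases and MRPL49 on the opposite strand, and the part of these neighbours in the shift was not tested. SSR1 was 6.64% longer, at 3032 and 3002 bases and then 3228 and 3207 bases, while its level did not pass. The posterior SD that RSEM gives for a count was at most 1.33% of the count in any library for each of the 38 genes.

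Further genes of ER protein handling were taken from 8 lists, with cytosolic heat shock genes as a ninth. In the 8 ER lists 36 of 140 tested genes were higher and 42 lower (55.7%, near the background of 53.5%), with a median log2 fold change of -0.02. Of further genes of ER-associated degradation, 6 of 23 rose and 4 fell, with the lipid droplet and HRD1 complex protein AUP1 (0.53), the ubiquitin ligase RNF185 (0.48), FAM8A1 (0.41) and the ligase MARCHF6 (0.39) at the top. Of the glycosylation and glycan quality control genes 8 of 18 rose and 6 fell. OS9 (114 and 111 CPM, then 185 and 181 CPM; log2 fold change 0.70) and ERLEC1 (0.42), lectins that hand glycoproteins to HRD1, and the mannosidase MAN1B1 (0.39) rose, and the oligosaccharyltransferase subunit OSTC fell by 0.45 on the log2 scale. Adjusted p-values of the genes named here were at most 8.8e-05 (edgeR).

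Other folding enzymes went both ways, with 5 of 19 higher and 5 lower among disulfide and prolyl isomerases and 4 and 4 of 16 among other chaperones. PDIA5 fell from 49.7 and 48.3 CPM to 23.8 and 26.4 CPM (log2 fold change -0.97, edgeR adjusted p = 2.9e-13), a larger change than in any isomerase of the main list, and the collagen chaperone SERPINH1 (-0.56) and the HSP70-like HSPA13 (-0.43) also fell. The prolyl isomerases FKBP14 (0.76) and FKBP10 (0.62), TXNDC16 (0.43), CRELD1 (0.82) and the BiP exchange factor SIL1 (0.36) rose, with edgeR adjusted p of 0.035 for TXNDC16 and at most 0.0041 for the others. Of translocon and signal peptide genes, 1 of 22 rose, SSR4 (0.46), and 7 fell, among them SEC61G (-0.38), SRP72 (-0.29) and SRP9 (-0.28).

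Of 16 genes for eIF2 kinases and the factors of the integrated stress response, 8 fell and 2 rose. ATF4 was at 391 and 445 CPM in the empty vector libraries and at 300 and 278 CPM in the FOXD2 libraries (log2 fold change -0.53, SE 0.06, edgeR adjusted p = 4.7e-10). CHAC1, a glutathione-degrading enzyme that is an ATF4 target, fell by 1.71 on the log2 scale, CEBPG, a partner of ATF4, by 0.61 and EIF2AK4, the amino acid sensing kinase GCN2, by 0.61. ATF3, another stress factor, was at 10.8 and 10.7 CPM and then at 11.05 and 10.2 CPM, with overlapping groups (-0.01, edgeR adjusted p = 0.96). Of 12 genes for ATF6 and IRE1 processing and ER-bound factors, 5 rose and 3 fell. This list also holds cell death and signalling genes. The cell death genes BAK1 (0.50) and BAX (0.39) and the ER-bound factor CREB3 (0.44) were higher. MAP3K5, the kinase ASK1, was lower (-0.60). Of 14 genes of ER turnover and shape 5 rose and 5 fell, including CALCOCO1 (15.4 and 17.2 CPM, then 52.7 and 51.2 CPM; 1.67) and the ER-phagy receptor CCPG1 (0.83) upwards and CKAP4 (-1.29) and ATL1 (-0.85) downwards.

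Cytosolic and mitochondrial heat shock genes were mostly lower, with 11 of 15 down and 2 up and a median log2 fold change of -0.31. The mitochondrial chaperonin genes HSPD1 (1880 and 1948 CPM, then 1165 and 1132 CPM; -0.74) and HSPE1 (-0.73) fell, as did HSPA1B (-0.96) and HSPA1A (-1.47), a near-identical pair between which RSEM divides reads, so that their single values are uncertain. The edgeR adjusted p-values of these 4 genes were at most 9.0e-05.

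**Figure D5:**
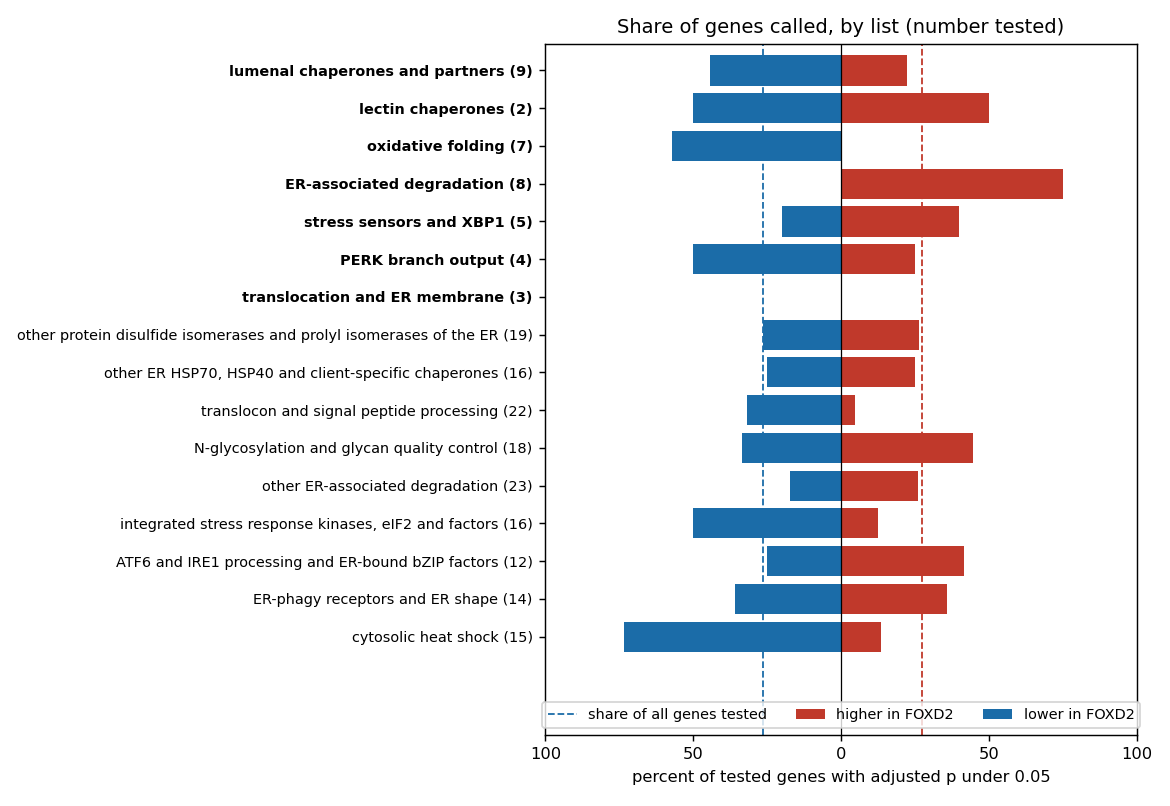
Percent of tested genes with edgeR adjusted p under 0.05 that were lower (blue, to the left) or higher (red, to the right) in FOXD2 cells, for the 7 roles of the main list (bold) and 9 further lists, with the number tested in parentheses. Dashed lines mark the share of all genes tested, 26.4% lower and 27.2% higher, and degradation genes of the main list and heat shock genes lie farthest to each side.

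Markers of other cells and of RNA quality were read beside these results. The 5 epithelial markers were present in all libraries and all rose, among them KRT8 (2210 and 2259 CPM, then 4137 and 3941 CPM). Of fibroblast markers COL1A1 rose (9.44 and 10.6 CPM, then 31.4 and 32.8 CPM), while COL1A2, DCN and LUM had 0 counts in each library. Of blood and endothelial markers, 1 of 6 passed the filter, VWF, which was not called, and PTPRC and CD3E had 0 counts. Of 8 markers of professional secretory cells, PRDM1 rose (2.15 and 1.26 CPM, then 18.4 and 20.1 CPM) and SDC1 was lower (-0.35), while JCHAIN, AMY2A, PRSS1, CPA1 and INS had 0 counts. Mitochondrial transcripts made up 8.81% and 9.0% of counts with the empty vector and 10.6% and 10.9% with FOXD2. Of RNAs without a polyA tail, RN7SL1, RN7SL2, RN7SK, RMRP and RPPH1 were summed. They came to 29.7 and 28.5 CPM with the empty vector and to 129 and 56.8 CPM with FOXD2, highest in FOXD2 replicate 1. Their part in the results was not tested beyond leaving out that library, without which the calls of DNAJB9, HERPUD1, SEL1L, DERL1 and ATF6B were lost and that of EIF2AK3 was gained.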

How the data were processed

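RNA was measured in 4 polyA libraries of HCT116 cells. The submitters' processing notes name the aligner STAR (2.7.2b), the quantifier RSEM (1.2.31) and the build GRCh38; the annotation release and strand setting are not given in the sources used here. Per the file headers, the authors' tables hold the RSEM expected count, TPM, gene length and posterior standard deviation of the count; lengths and these standard deviations are other quantities that the authors deposited. Totals were 14245777 and 15535817 counts with the empty vector and 15340166 and 14231338 with FOXD2. Limits from 3 counts cover counting error only.

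Expected counts were rounded and fitted with edgeR 4.0.16 in R 4.3.3 (TMM, filterByExpr, robust quasi-likelihood, two-sided). CPM use TMM-scaled library sizes; fold changes are fitted log2 ratios. DESeq2 1.42.0 and limma 3.58.1 gave alternatives, the latter on voom values and on log2(TPM + 1) or log2(TPM + 0.1). Replicates differed by more than sampling noise (chi-square per degree of freedom 2.52 and 3.91). Symbols were matched for 60370 identifiers, and gene coordinates are from GENCODE 29. Promoters are from RefSeq, the first entry of each symbol.

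Members and lists were chosen with earlier results of these data known. Named were members past the threshold with an absolute log2 fold change of at least 0.3, 10 central members whatever their values, ATF4 and ATF3, and up to 4 genes per further list with the largest called change and a mean log2 CPM of at least 1.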

Additional observations from a re-analysis of the deposited data

How the results depend on the processing

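Under the 14 alternatives, 0 values of the 38 tested genes were called in the opposite direction. Of the 24 calls, 11 held in each alternative and 13 were lost in at least 1, and CRELD2, ERN1 and EIF2AK3 were gained in at least 1. With DESeq2, 6 of the 38 genes were called higher in place of 12, 2 degradation genes in place of 6, 1 chaperone in place of 2 and 1 of the sensors and XBP1 in place of 2. Over all genes DESeq2 called 2707 higher in place of 3929 and 2916 lower in place of 3816. With limma on log2(TPM + 1) and log2(TPM + 0.1), 6 and 7 genes were called higher, including 2 and 2 degradation genes and 0 and 1 chaperones. In both, 2 chaperones in place of 4, 1 PERK output gene in place of 2 and 0 sensors in place of 1 were called lower, and of all genes 2424 and 2415 were lower and 2902 and 2887 higher. Upper-quartile factors and no scaling factors each left 2 chaperones called lower. The median log2 fold change of the 38 genes, -0.04, was -0.0046 with upper-quartile factors, 0.0225 without scaling, -0.0581 without the filter, and -0.0209 and -0.0214 on the TPM scales. The cause was not tested for any of these.

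Leaving out 1 library at a time gave 6 to 10 genes called higher, 9 to 12 called lower, 3 to 4 degradation genes higher, 0 to 2 chaperones higher and 2 to 4 lower, 1 to 2 of the sensors and XBP1 higher and 1 to 2 lower, 1 to 2 PERK output genes lower, and a median from -0.0757 to -0.0348. The fewest higher calls, 6, came without empty vector replicate 2.

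Replicate numbers were not shown to pair the libraries, since the deviations of same-numbered libraries correlated at -0.0989. With the replicate number as a block, 10 genes were called higher and 10 lower, and 2 chaperones were lower in place of 4.

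With 2 libraries a group, differences such as those of HERPUD1, SEL1L or DERL1 are near what the spread allows to be called. DERL3 and ERN2 had too few counts to be tested.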
